A study of Rattus norvegicus with 6 samples.

Results

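Genes of the heat shock response and the unfolded protein response were followed in the colons of rats given the colon carcinogen azoxymethane (AOM). There were 10, the chaperones of the endoplasmic reticulum (ER) Hspa5, Hsp90b1 and Pdia4, the ER membrane protein Herpud1, the transcription factors Atf4 and Ddit3, and the cytosolic chaperones Hspa8, Hsph1, Dnajb1 and Hspb1. Members were taken by name, and a probe counted as theirs if the accession that the array lists for it belongs to that rat gene in RefSeq. Of the 10 genes, 9 had a matched probe, and Dnajb1 had none. They were read by 12 of the 23997 probes in the deposited table, of which 4 read Hspa8, while the array as a whole held 30367 probes. All 12 were well above background on all 6 arrays, so the filter on dim probes removed none of them.

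The 6 male rats compared had 1 single-color Agilent array each. Of these, 3 (C1, C2 and C3) were of the S.LEW(10)x12x2x3x5 congenic strain, here S.LEW congenic, in which a short Lewis segment sits on the genome of the Dahl salt-sensitive rat, and 3 (S1, S2 and S3) were Dahl salt-sensitive rats (SS/Jr), here S, an inbred hypertensive strain. All 6 had been fed a low salt diet and had received AOM at 15 mg per kg in 2 weekly injections from 6 weeks of age, and all were 30 weeks old when the colon was taken. Every group was thus treated, and the strain comparison carries no untreated level. RNA was taken from opened and rinsed colon, a mixed tissue, and whether tumor was included is not stated. In such RNA fewer cells of a type cannot be told apart from less RNA per cell.

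Cells answer damaged or unfolded proteins by compartment. In the cytosol, heat shock factor 1 binds heat shock elements and switches on the Hsp70, Hsp110, Hsp40 and small heat shock protein genes. In the ER, unfolded proteins activate the sensors Ire1, Perk and Atf6, which act through Xbp1, Atf4 and cleaved Atf6 on ER chaperones, on the machinery that returns misfolded proteins to the cytosol for degradation, and on Ddit3. Secretory cells such as goblet cells and plasma cells use the ER branch even without injury, and the colon holds both.

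Elements through which these responses work were searched for in the promoters of all 10 genes. The 6 promoters shown belong to measured genes and are those in which an element was found. Each is the RefSeq window of 250 bases before and 50 after the gene start in the GRCr8 assembly, printed 5′ to 3′ along the gene. Capitals mark matches, on either strand, to the ER stress response element (CCAAT, any 9 bases, CCACG), the ER stress response element II (ATTGG, any 1 base, CCACG), the C/EBP-ATF response element (TGATGNAA), and the heat shock element, in which GAA and TTC units alternate with 2 free bases between them, as 2 units (GAANNTTC) or as 3 starting with either unit. The 3-unit form contains the 2-unit form.
Hspa5 (chr3:38452766-38453065, plus strand): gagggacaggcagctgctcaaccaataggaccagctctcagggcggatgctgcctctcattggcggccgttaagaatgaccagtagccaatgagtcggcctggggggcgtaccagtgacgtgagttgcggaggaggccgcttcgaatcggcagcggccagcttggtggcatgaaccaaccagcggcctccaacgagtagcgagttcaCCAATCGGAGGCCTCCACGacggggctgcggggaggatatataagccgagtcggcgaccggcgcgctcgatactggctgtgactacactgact
Hsp90b1 (chr7:23012244-23012543, minus strand): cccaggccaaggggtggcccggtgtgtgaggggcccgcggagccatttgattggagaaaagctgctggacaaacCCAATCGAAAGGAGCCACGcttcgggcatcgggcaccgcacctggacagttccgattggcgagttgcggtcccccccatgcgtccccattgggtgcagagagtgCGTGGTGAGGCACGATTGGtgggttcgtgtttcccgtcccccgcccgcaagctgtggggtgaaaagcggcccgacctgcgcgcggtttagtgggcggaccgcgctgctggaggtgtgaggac
Herpud1 (chr19:10614658-10614957, minus strand): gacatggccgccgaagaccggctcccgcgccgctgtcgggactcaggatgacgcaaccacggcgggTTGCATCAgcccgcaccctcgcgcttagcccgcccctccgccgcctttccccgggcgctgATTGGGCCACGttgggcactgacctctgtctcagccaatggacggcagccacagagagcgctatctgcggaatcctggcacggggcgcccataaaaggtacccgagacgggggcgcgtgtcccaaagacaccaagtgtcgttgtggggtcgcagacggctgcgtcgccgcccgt
Hspa8 (chr8:50080264-50080563, plus strand): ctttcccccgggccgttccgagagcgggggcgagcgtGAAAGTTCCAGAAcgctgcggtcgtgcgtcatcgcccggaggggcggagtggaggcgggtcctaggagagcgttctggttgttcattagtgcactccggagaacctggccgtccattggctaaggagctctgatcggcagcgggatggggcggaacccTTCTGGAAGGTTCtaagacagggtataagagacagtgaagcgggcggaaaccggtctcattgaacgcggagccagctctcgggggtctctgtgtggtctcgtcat
Hsph1 (chr12:10427118-10427417, plus strand): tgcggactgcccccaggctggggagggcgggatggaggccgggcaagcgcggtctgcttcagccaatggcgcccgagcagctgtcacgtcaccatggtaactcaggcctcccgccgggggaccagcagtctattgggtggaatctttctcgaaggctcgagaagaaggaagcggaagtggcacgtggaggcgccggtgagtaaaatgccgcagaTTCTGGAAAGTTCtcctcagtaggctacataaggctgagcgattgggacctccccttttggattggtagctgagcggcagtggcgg
Hspb1 (chr12:26432252-26432551, minus strand): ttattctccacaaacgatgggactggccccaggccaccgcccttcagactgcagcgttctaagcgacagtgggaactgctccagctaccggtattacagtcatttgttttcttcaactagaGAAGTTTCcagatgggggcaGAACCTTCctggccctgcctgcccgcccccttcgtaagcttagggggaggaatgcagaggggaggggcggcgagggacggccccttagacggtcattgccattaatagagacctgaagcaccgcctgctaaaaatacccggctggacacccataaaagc

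The ER stress response element stood once before Hspa5, starting 43 bases upstream, and at 176 and 72 bases upstream of Hsp90b1. It occurs in 0.0657% of the 33469 promoters of the same length in RefSeq. Herpud1 held element II (0.0508% of promoters) 124 bases upstream and the C/EBP-ATF element (3.98%) 184 bases upstream. The 3-unit heat shock element (0.798%) stood at 213 and 55 bases upstream of Hspa8 and 36 bases upstream of Hsph1. Hspb1 had only 2-unit matches (8.59% of promoters), at 129 and 109 bases, and Dnajb1 had 2 such matches close to its start. Pdia4, Ddit3 and Atf4 held none of these letters in the window. These are letter matches and not measured binding.

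An array stood apart from its strain. The S2 array correlated with the congenic arrays at 0.967 to 0.976 (Pearson, over the 23997 probes), but with S1 at 0.900 and with S3 at 0.937, while S1 and S3 correlated at 0.980. Results that rest on S2 are therefore given with and without it. The arrays were read in 2 scan runs, C1 with the 3 S rats in the first and C2 with C3 in the second, and the within-run difference (C1 against the 3 S rats) is given beside the members. The median intensity before normalization was 594 in S1 and 445 in S3, against 219 in S2 and 214 to 291 in the congenic rats. Thus S1 and S3 were the brightest arrays, and the part of this in the values they share was not tested. Between 73.8% and 87.6% of spots were well above background, with S1 and S3 again the highest. Epithelial and smooth muscle markers were well above background on all 6 arrays (9 of 9 tested genes in each list), so the main tissues of the colon wall were present.

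None of the 9 measured genes differed between the strains in the limma test with Benjamini-Hochberg adjustment over all probes. At an adjusted p under 0.05, 0% of all 23997 probes were called, so this holds for the whole array. At an unadjusted p under 0.05 again none of the 12 probes was called, against 13% of all probes, and with a 2-fold change none against 5.58%. No member had strains that did not overlap, that is with every congenic rat above or below every S rat, which 17.7% of all probes showed. In the exact two-sided permutation test of each probe, p was 0.4 to 0.9, where 0.1 is the smallest that 3 rats against 3 allow. The rats are separate animals, with 1 sample each.

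**Figure D1:**
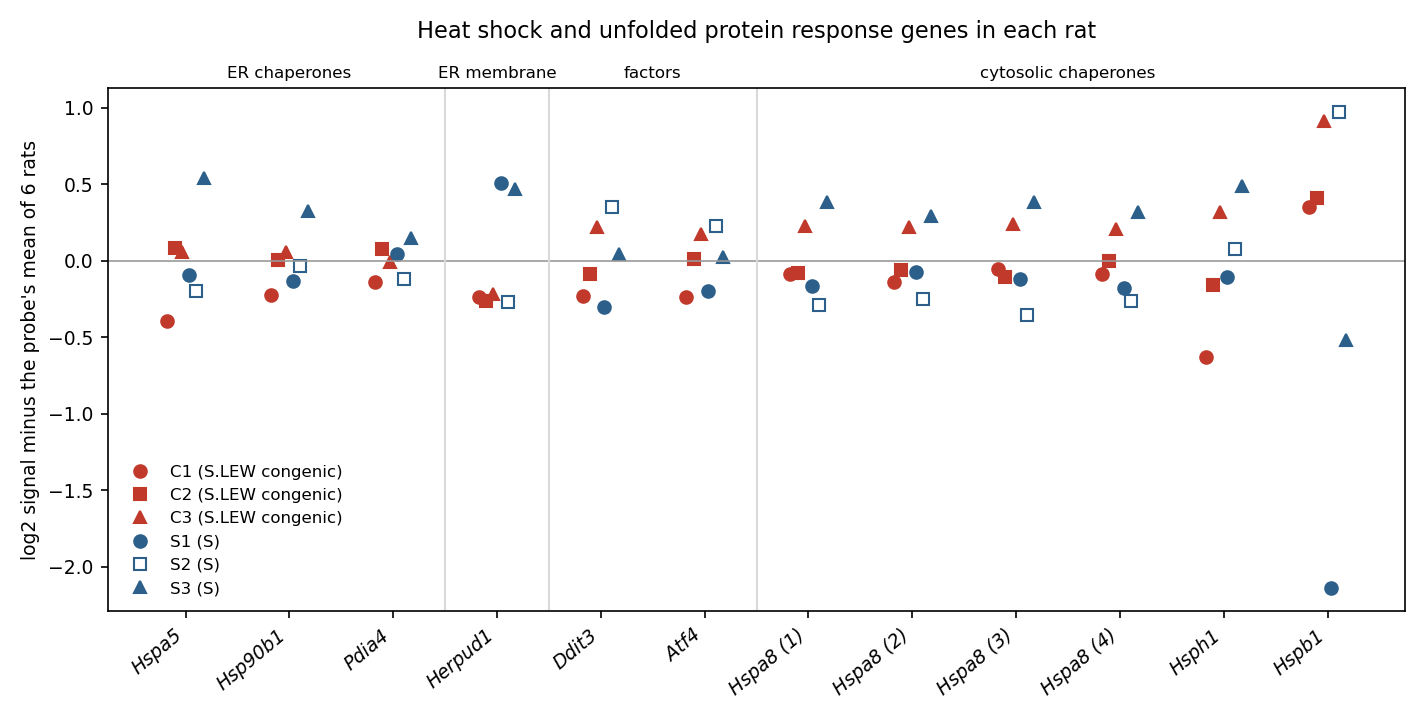
Deposited log2 signal of each probe minus its mean over the 6 rats (y axis), for the 12 probes of the 9 measured genes (x axis, grouped by role; the 4 Hspa8 probes are numbered from the brightest). Red symbols are S.LEW congenic rats, blue symbols S rats and the open square S2, and the strains overlap for every probe, with the widest spread for Hspb1, 3.11 within S.

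Among the ER chaperones, Hspa5 (BiP) is the Hsp70 of the ER and holds the stress sensors inactive while it is free. The congenic rats C1, C2 and C3 gave deposited log2 signals of 13.05, 13.53 and 13.50, and S1, S2 and S3 gave 13.35, 13.24 and 13.98. The difference, congenic minus S, was -0.17 (SE 0.27, adjusted p = 0.771), with C1 the lowest rat and S3 the highest. Leaving out S3 turned it to 0.06, and within the first scan run it was -0.48 (SE 0.38).

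Hsp90b1 (Grp94), the Hsp90 of the ER, read 12.32, 12.55 and 12.60 in the congenic rats and 12.41, 12.51 and 12.87 in the S rats. The difference was -0.11 (SE 0.20, adjusted p = 0.806), and C1 was again the lowest and S3 the highest. Pdia4 (Erp72), which forms and rearranges disulfide bonds, read 9.73, 9.95 and 9.87 against 9.92, 9.76 and 10.02, a difference of -0.05 (SE 0.17, adjusted p = 0.899). All 3 ER chaperones thus had C1 at the bottom and S3 at the top, with the strains interleaved between. Without S3 the differences of Hsp90b1 and Pdia4 were 0.03 and 0.01, and within the first scan run they were -0.28 and -0.17.

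Herpud1, an ER membrane protein that organizes the degradation of misfolded ER proteins, showed another order of rats. It read 11.13, 11.11 and 11.15 in the congenic rats, a range of 0.04, and 11.88 (S1), 11.10 (S2) and 11.84 (S3) in the S rats, a range of 0.78. S1 and S3 stood above all congenic rats and S2 lay just below them. Over all rats the difference was -0.48 (95% confidence interval -1.09 to 0.13, SE 0.25, adjusted p = 0.442). Without S2 it was -0.73 (interval -1.07 to -0.38, SE 0.14), the strains no longer overlapped and the adjusted p was 0.0232. Without S2, strains did not overlap for 59.9% of all probes, and 11.6% of the 12418 genes with a named probe (1 probe per gene) were called lower in the congenic strain and 14.1% higher, so a call there is common. Within the first scan run, where C1 is the only congenic rat and the spread comes from the other rats, the difference was -0.48 (SE 0.40).

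Both transcription factors sat side by side. Atf4 is made mainly by selective translation when eIF2α is phosphorylated, so its RNA reports only part of its activity. Its signal was 12.16, 12.41 and 12.57 in the congenic rats and 12.20, 12.62 and 12.42 in the S rats, with a difference of -0.03 (SE 0.21, adjusted p = 0.942). Ddit3 (CHOP), a target of Atf4 that is linked to cell death in lasting ER stress, read 11.58, 11.73 and 12.04 against 11.51, 12.16 and 11.86, a difference of -0.06 (SE 0.24, adjusted p = 0.909). In both genes C1 and S1 were the 2 lowest rats and S2 and C3 the 2 highest. The sign changed without S2, to 0.07 for Atf4 and 0.10 for Ddit3, with adjusted p of 0.802 and 0.752. Within the first scan run the difference was -0.26 for each.

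The cytosolic chaperones include the member with the largest difference, Hspb1, which is described last. Hspa8 (Hsc70), the constitutive Hsp70, was read by 4 probes. The brightest, A_64_P023392, gave 15.50, 15.51 and 15.81 in the congenic rats and 15.42, 15.30 and 15.97 in the S rats, and S2 was the lowest and S3 the highest rat on all 4. Their differences were 0.05, 0.02, 0.05 and 0.08 (SE 0.22 to 0.25, adjusted p of 0.871 to 0.970), so the probes gave the same answer within their errors. Each turned negative without S2 (-0.03 to -0.11) and within the first scan run (-0.02 to -0.13). Whether related copies of Hspa8 in the genome add signal was not tested.

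Hsph1 (Hsp105), an Hsp110 that recharges Hsp70 with ATP, read 9.79, 10.25 and 10.73 in the congenic rats and 10.31, 10.49 and 10.90 in the S rats. The congenic range, 0.95, was wider than the S range of 0.59. Its difference was -0.31 (SE 0.30, adjusted p = 0.622), which became -0.07 without C1, and within the first scan run it was -0.78 (SE 0.37, adjusted p = 0.818). C1 was the lowest rat and S3 the highest, as for the ER chaperones.

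Hspb1 (Hsp27), a small heat shock protein that holds unfolding proteins without ATP and binds the actin cytoskeleton, spread most. The congenic rats C1, C2 and C3 read 13.39, 13.44 and 13.95, while S1 read 10.89, S2 14.00 and S3 12.51. The S rats spanned 3.11 log2 units and the congenic rats 0.56, and S2 stood above every congenic rat while S1 and S3 stood below. The difference was 1.12 (95% confidence interval -0.66 to 2.90, SE 0.74, adjusted p = 0.504), or 2.17-fold with an interval from 0.632-fold to 7.49-fold. Without S2 it was 1.89 (interval 0.63 to 3.14, SE 0.50, adjusted p = 0.049) and the strains did not overlap. Without S1 it was 0.33 (adjusted p = 0.899), and within the first scan run it was 0.92 (SE 1.14).

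For 9 of the 12 probes the 95% interval lay inside a 2-fold change in either direction. The exceptions were Herpud1 and Hsph1, whose lower bounds were -1.09 and -1.03, and Hspb1, whose interval reached past 2-fold only upwards. Without S2, 2 of 9 genes were called, Hspb1 higher and Herpud1 lower, beside 25.7% of those 12418 genes.

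**Figure D2:**
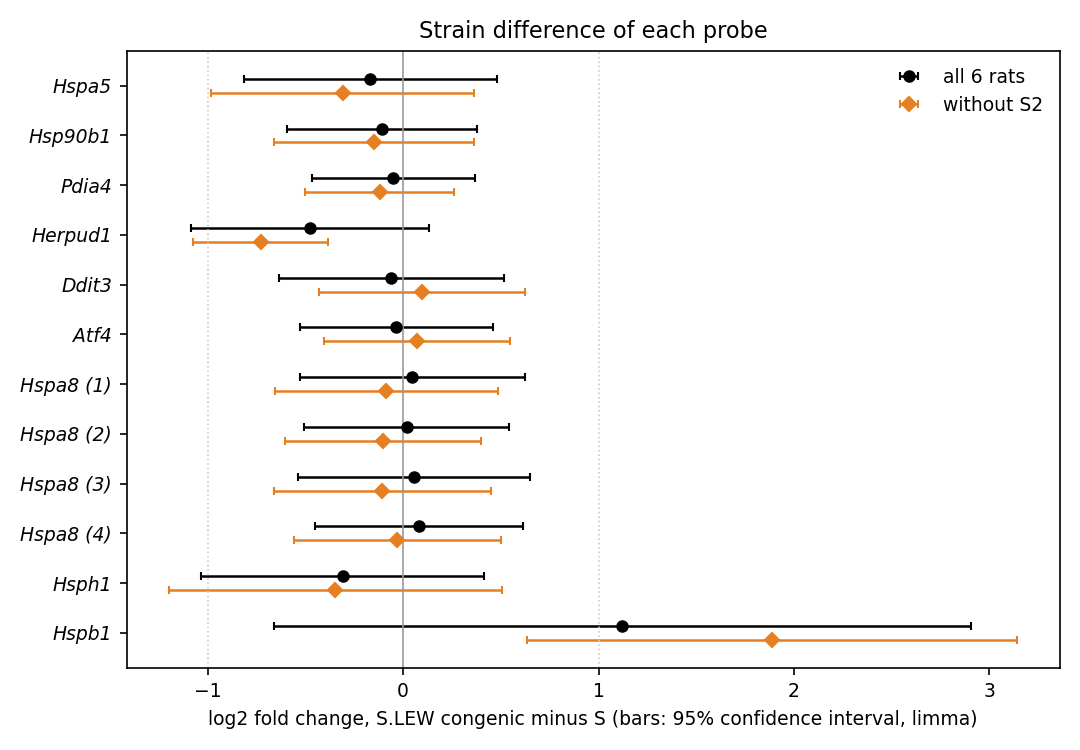
Log2 fold change, S.LEW congenic minus S (x axis), for each probe (y axis), over all 6 rats (black circles) and without S2 (orange diamonds), with 95% confidence intervals from limma. Dotted lines mark a 2-fold change. The intervals over all rats include 0 for every probe, and without S2 those of Herpud1 (-1.07 to -0.38) and Hspb1 (0.63 to 3.14) do not.

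To set the cytosol against the ER, each gene was centred on its mean over the 6 rats, since levels of different probes cannot be compared, and averaged by compartment in each rat, with the brightest probe for Hspa8. The mean of Hspa8, Hsph1 and Hspb1 was 0.14 ± 0.31 in the congenic strain and -0.14 ± 0.57 in S (mean ± SD over 3 rats). That of Hspa5, Hsp90b1 and Pdia4 was -0.05 ± 0.17 and 0.05 ± 0.25. The cytosolic mean was thus higher and the ER mean lower in the congenic strain, both by less than the spread among rats. Without Hspb1 the cytosolic mean was lower in the congenic strain instead, at -0.07 ± 0.32 against 0.07 ± 0.32, a difference of -0.13.

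The cytosolic minus the ER mean was 0.13, 0.003 and 0.45 in C1, C2 and C3 and -0.74, 0.37 and -0.22 in S1, S2 and S3. S1 and S3 were below the congenic rats and S2 among them. Its strain difference was 0.39, against SDs of 0.23 and 0.56. It came from 1 gene: without Hspb1 the values were -0.10, -0.17 and 0.24 against -0.07, 0.01 and 0.10, and the difference was -0.02. With Herpud1 counted among the ER genes it was 0.49. No test is given for a score over chosen genes.

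**Figure D3:**
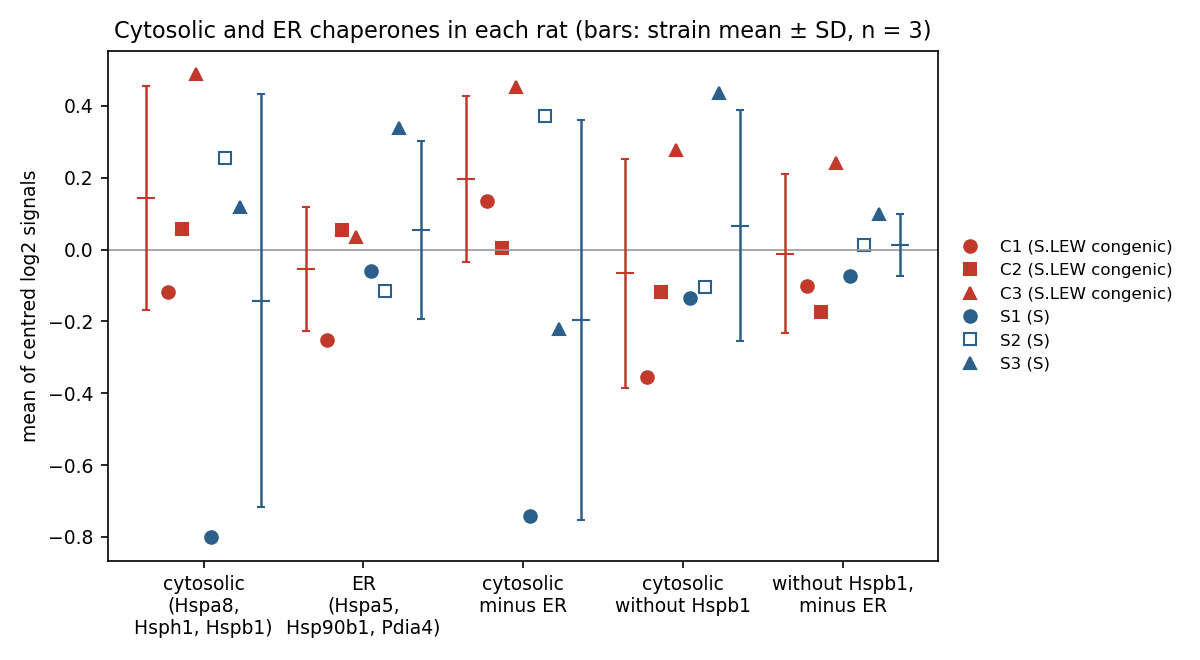
Mean of centred log2 signals in each rat (y axis) for cytosolic chaperones, ER chaperones and their difference, and the same without Hspb1 (x axis). Red symbols are S.LEW congenic rats, blue symbols S rats, the open square S2, and bars the strain mean ± SD (n = 3). S1 at -0.74 and S3 at -0.22 are below the congenic rats for the difference, and without Hspb1 the strain means differ by -0.02.

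The wider families were described from lists of 1 probe per gene, with the members left out. Beside them, the median difference over all 12418 genes was 0.03. Strains did not overlap in 14.2% of all genes with the congenic rats above, and in 5.01% with them below. Without S2, the shares of all genes called by adjusted p were 14.1% higher and 11.6% lower. Over all rats, in no list did a gene pass the adjusted threshold, as for all genes (0%).

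In the ER itself, 21 of 23 further chaperones and folding enzymes were measured, with a median difference of 0.04. All congenic rats were above all S rats for 4 of them and below for none. Dnajc10, a disulfide reductase of ER degradation, was 0.52 higher (SE 0.20, adjusted p = 0.371). Fkbp2, a prolyl isomerase, was 0.41 higher (adjusted p = 0.411), and Pdia3 (Erp57), which works with calreticulin, was 0.29 higher (adjusted p = 0.521), and 0.14 without S2. Without S1, Fkbp2 was 0.27 higher. Without S2, Dnajc10 was called higher and 3 genes lower, Ero1b, Creld2 and Erp29, which are named here after their values were seen. Of all genes, 14.1% were called higher and 11.6% lower there.

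In ER-associated degradation, the pathway of Herpud1, 12 of 15 genes were measured and the median was -0.18. Congenic rats were below all S rats for 3 genes and above for 1. Derl3, a derlin rich in secretory cells, read 5.86, 6.05 and 6.03 in the congenic rats against 8.42 (S1), 6.19 (S2) and 8.56 (S3), a difference of -1.74 (SE 0.63, adjusted p = 0.354), or -1.13 with normexp background correction. Ube2j1, a ubiquitin-conjugating enzyme of this pathway, was lower by -0.64 (SE 0.24, adjusted p = 0.367), and Erlec1, a lectin of it, 0.21 higher (adjusted p = 0.548). Syvn1, the ubiquitin ligase Hrd1 that Herpud1 works with, was named after its values were seen, and read 11.43, 11.46 and 11.97 against 13.16, 11.61 and 12.54. In Derl3, Ube2j1 and Syvn1, S1 and S3 were the highest rats, as they were for Herpud1. Without S2, Derl3 (-2.51), Ube2j1 (-0.85) and Syvn1 (-1.23) had adjusted p of 0.00152, 0.0262 and 0.0342.

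Some markers of other cells moved with this pattern. Of 11 B and plasma cell markers, 6 were tested, and 5 of the 6 were lower in the congenic strain on average. Among these 5, Prdm1 and Tnfrsf17, named after their values were seen, did not follow the pattern. Prdm1 was highest in S2 (8.33), with S1 at 6.86, and Tnfrsf17 was higher in C2 (7.26) than in S1 (6.35). Mzb1, an ER protein of B and plasma cells, read 5.20, 5.35 and 5.09 in the congenic rats against 8.90 (S1), 5.61 (S2) and 8.71 (S3). Sdc1, which plasma cells share with epithelium, was 0.77 higher in the congenic strain instead. The summed linear signal of the list was 9514 to 10977 in the congenic rats and 7197 to 41687 in the S rats, with S1 and S3 at the top. In the congenic rats and S2 that sum was mostly Sdc1, at log2 signals of 13.25, 13.34, 13.16 and 12.67. The mean of centred log2 signals, in which each gene counts equally, was -1.53, -0.47 and -1.46 in C1, C2 and C3. It was 2.14, -1.03 and 2.36 in S1, S2 and S3. The T cell list (7 of 10 genes tested, median -2.31) and the macrophage list (8 of 8, median -0.70) were highest in S1 and S3 too, by summed signal. Within the macrophage list 3 of 8 genes were higher in the congenic strain on average, Cd163 (1.85), Mrc1 (1.03) and Adgre1 (0.45), and for Cd163 and Mrc1 the strains did not overlap. Their part in the values of Herpud1 and Derl3 was not tested.

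Among the sensors and transcription factors of the unfolded protein response, 12 of 13 were measured with a median of 0.14. Xbp1, the factor made active by Ire1 splicing, read 12.36, 12.42 and 12.52 in the congenic rats and 11.97, 12.32 and 12.24 in the S rats, and was the only one whose strains did not overlap. Its difference was 0.26 (SE 0.18, adjusted p = 0.522), or 0.15 without S1, and the signal does not separate the spliced form. Without S2, 4 of the 12 were called higher and 1 lower, beside 14.1% and 11.6% of all genes. The lower gene was Eif2ak3 (Perk), at 10.49, 10.35 and 10.53 against 11.70, 9.90 and 11.19. Among the higher was Ern2, the Ire1 of mucosal epithelium, at 9.99, 9.98 and 10.29 against 8.59, 10.56 and 8.72. Both were named after their values were seen, and in both S2 lay beyond the congenic rats on the side away from S1 and S3.

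Around Atf4, 25 of 26 genes of the integrated stress response were measured, among them Atf4 targets and the eIF2α kinases above it, with a median of 0.00. Congenic rats were above for 2 genes and below for 3. Slc7a11, the cystine importer, read 5.50, 5.09 and 5.44 in the congenic rats and 8.39, 5.77 and 7.63 in the S rats, a difference of -1.91 (SE 0.64, adjusted p = 0.339). It was well above background on 2 of the 3 congenic arrays, and with normexp background correction the difference was -1.13. Vldlr, a lipoprotein receptor that Atf4 induces, was 0.91 higher (SE 0.23, adjusted p = 0.269), or 0.59 with normexp, and Nupr1, a stress-induced chromatin protein, 0.78 higher (SE 0.26, adjusted p = 0.338). Without S2, 2 of the 25 genes were called higher and 4 lower, beside 14.1% and 11.6% of all genes.

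In the cytosol, 30 of 32 Hsp70, Hsp90 and partner genes had a median of 0.10, and only Hspbp1, which releases nucleotide from Hsp70, had strains that did not overlap (0.21 higher, SE 0.17, adjusted p = 0.565, and 0.13 without S3). Without S2, 3 of the 30 were called higher and 0 lower, beside 14.1% and 11.6% of all genes. They were Hspa2 (2.06, adjusted p = 0.0149), a relative of Hsp70, Bag2 (1.92, adjusted p = 0.028), which regulates Hsp70, and Dnajb5 (1.24, adjusted p = 0.0238), an Hsp40, all named after their values were seen. Over all rats their differences were 1.34, 1.09 and 0.43, with adjusted p of 0.408, 0.508 and 0.763. Some of the heat-inducible genes of this list, named after their values were seen, had C1 as the lowest and C3 as the highest congenic rat, as Hsph1 did. Dnaja1, an Hsp40, read 11.89, 12.25 and 12.90 in C1, C2 and C3 and 12.38, 12.41 and 12.92 in the S rats, a difference of -0.23 (SE 0.31, adjusted p = 0.732). Hsp90aa1, the inducible Hsp90, read 12.97, 13.29 and 13.68 against 13.18, 13.53 and 13.51, a difference of -0.09 (SE 0.24, adjusted p = 0.859). For both, C1 was the lowest rat of all 6, and the strains overlapped. The TRiC chaperonin, which folds actin and tubulin, had all 8 subunits measured, a median of -0.07 and 1 subunit, Cct6a, with the congenic rats above (0.12 higher, SE 0.16, adjusted p = 0.709).

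All 7 further small heat shock proteins were higher in the congenic strain on average, with a median of 0.80. Hspb3, a muscle form, was 1.45 higher (SE 0.46, adjusted p = 0.331) and Hspb9 0.69 higher (SE 0.29, adjusted p = 0.386, and 0.46 without S1), and these 2 were the genes whose strains did not overlap. Hspb3 was dim, well above background on 2 of the 3 S arrays, and its difference was 0.54 with normexp. Hspb6, Hspb8 and Cryab, named after their values were seen, are small heat shock proteins of muscle. Hspb6 read 12.14, 12.06 and 12.40 in the congenic rats and 9.42, 12.77 and 10.50 in the S rats. Hspb8 read 11.78, 11.99 and 12.31 against 9.38, 12.55 and 10.41, and Cryab 12.46, 12.58 and 13.23 against 10.31, 13.61 and 11.95. In each, S1 was lowest, S3 next and S2 highest, which is the order of the S rats for Hspb1. Their differences were 1.30, 1.25 and 0.80, with adjusted p of 0.484, 0.484 and 0.630. Without S2, Hspb6 (2.24), Hspb8 (2.13) and Cryab (1.63) had adjusted p of 0.0152, 0.0176 and 0.077. Hspb7 and Hspb2, also named after their values were seen, differed by only 0.05 and 0.09 over all rats (adjusted p = 0.961 and 0.855). Without S2 they differed by 0.42 and 0.24 (adjusted p = 0.339 and 0.359). For Hspb2 the lowest rat was S3.

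In all 9 smooth muscle markers, the contractile genes of the colon wall, S1 was lowest and S3 next, as for Hspb1. Unlike in Hspb1, S2 did not stand above every congenic rat for Smtn, Myh11 and Actg2. Their differences were 0.58 to 1.49 with a median of 0.98, and none had strains apart. The summed linear signal was 624662 to 706263 in the congenic rats, 196822 in S1, 749477 in S2 and 411881 in S3, so S1 was lowest, S3 next and S2 highest. Desmin (Des), for one, read 15.96, 16.19 and 16.21 in the congenic rats and 13.79, 16.55 and 15.06 in the S rats. The part of smooth muscle in the Hspb1 values was not tested. Of the striated muscle markers, 6 of 8 were tested, and all 3 congenic rats lay below the S rats for 3 of the 6. For 2 of these 3, Mybpc1 and Myh1, no congenic array was well above background, so they passed the detection filter through the S rats alone and had to be lower.

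**Figure D4:**
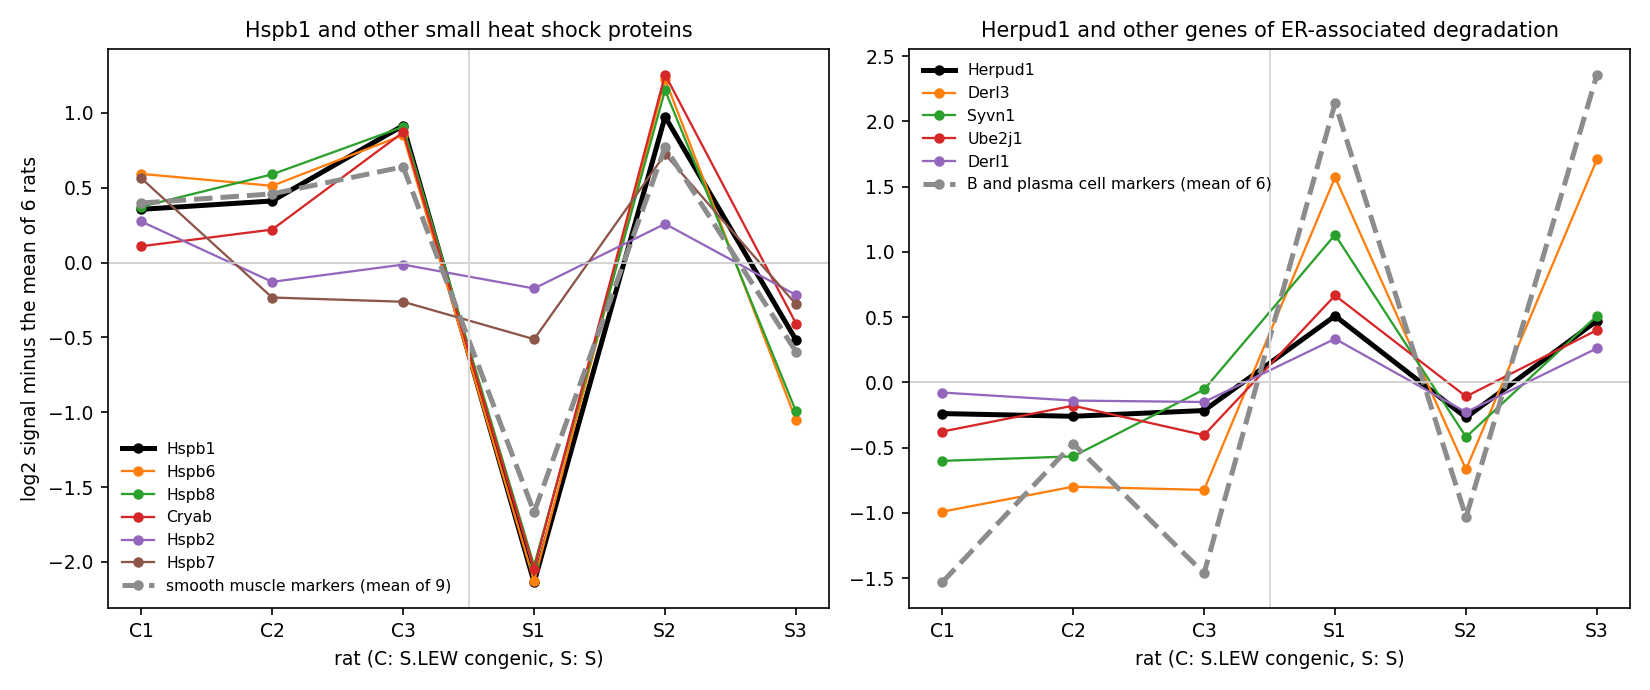
Log2 signal minus the mean of the 6 rats (y axis) in each rat (x axis). The left panel shows Hspb1 (black), other small heat shock proteins (colors) and the mean of 9 smooth muscle markers (dashed), and the right panel Herpud1 (black), genes of ER-associated degradation (colors) and the mean of 6 B and plasma cell markers (dashed). S1 is lowest in the left panel for Hspb1, Hspb6, Hspb8 and Cryab, and S1 and S3 are the highest rats for every line of the right panel.

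Mitochondria have their own chaperones and unfolded protein response, which is linked to Ddit3 and Atf5. Of 12 genes 11 were measured, with a median of 0.25, and in 5 of the 11 all congenic rats were above all S rats, beside 14.2% of all genes. Hspd1 (Hsp60), the mitochondrial chaperonin, read 13.88, 14.06 and 13.70 in the congenic rats and 13.13, 13.37 and 13.41 in the S rats, a difference of 0.58 (SE 0.19, adjusted p = 0.333). Grpel1, the nucleotide exchange factor of mitochondrial Hsp70, read 11.02, 11.08 and 10.83 against 10.43, 10.62 and 10.54, a difference of 0.45 (SE 0.17, adjusted p = 0.369). Hspa9 (mortalin), that Hsp70 itself, read 12.25, 12.32 and 11.96 against 11.68, 11.86 and 11.67, a difference of 0.44 (SE 0.18, adjusted p = 0.387). The other 2 were Hspe1 (Hsp10), the lid of Hspd1, and Trap1, the mitochondrial Hsp90, at 0.33 and 0.25. Without S2 the differences of Hspd1, Grpel1 and Hspa9 were 0.61, 0.49 and 0.50, with adjusted p of 0.0671, 0.0742 and 0.0894. No gene of the list was called higher in that comparison, and 2 were called lower, Grpel2 (-0.88, adjusted p = 0.021) and Yme1l1 (-0.66, adjusted p = 0.0292).

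In the same list, 3 genes were lower on average in the congenic strain, Grpel2 (-0.63), Yme1l1 (-0.40) and Htra2 (-0.36), and there S2 lay with the congenic rats. Epithelial markers were higher in the congenic strain, as Hspd1, Grpel1 and Hspa9 were. Of 10, 9 were tested, all 9 were higher in the congenic strain, and the median was 0.81. For 6 the strains did not overlap, beside 14.2% of all genes with the congenic rats above. Their summed linear signal was 103555 to 154980 in the congenic rats and 63715 to 88768 in the S rats, S2 included. Goblet cell markers (6 of 8 tested) had a median of 0.43. The part of epithelium in the mitochondrial chaperone values was not tested.

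**Figure D5:**
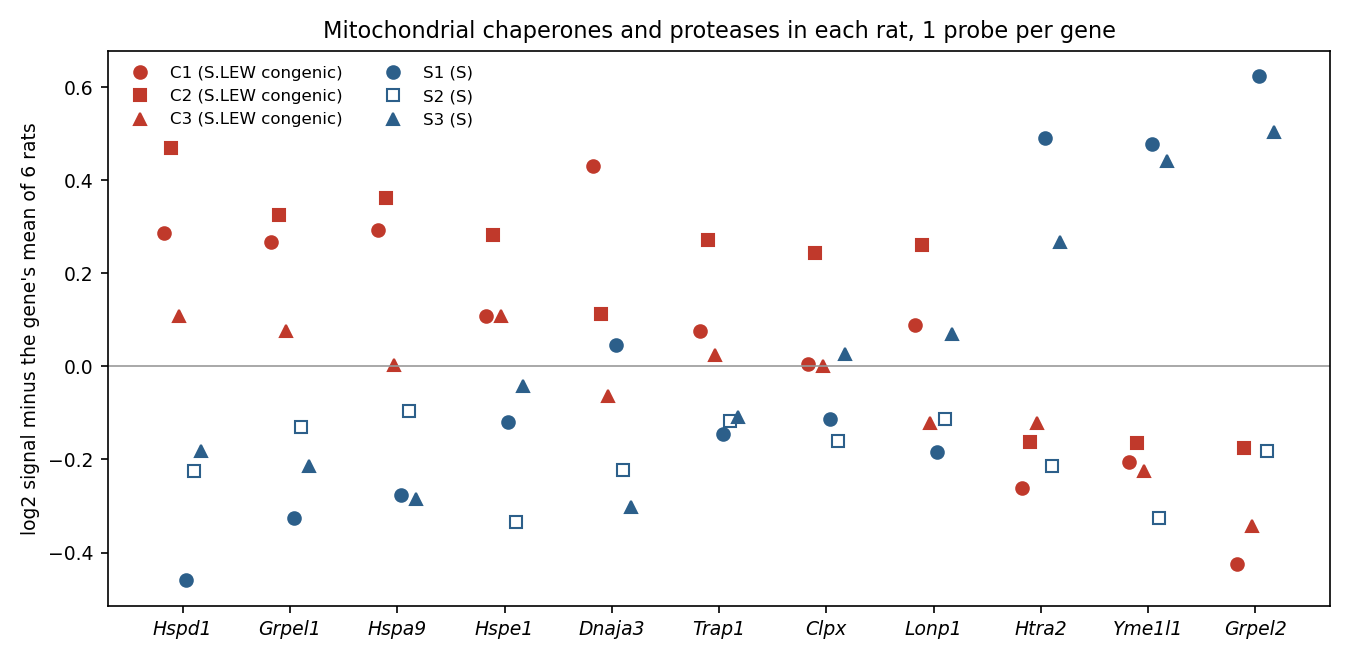
Log2 signal minus the gene's mean over the 6 rats (y axis) for the 11 measured mitochondrial chaperones and proteases (x axis, from the most positive to the most negative difference), with congenic rats in red, S rats in blue and S2 as the open square. For Hspd1, Grpel1, Hspa9, Hspe1 and Trap1 every congenic rat is above every S rat.

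The 2 remaining marker lists stood as follows. Adipocyte markers (5 of 6 tested) had a median of 0.79, with 3 genes higher in every congenic rat, beside 14.2% of all genes. Pck1 of this list differed by -0.12. Immediate early genes, which respond within minutes to handling or injury of tissue, had 8 of 9 tested and a median of -0.19. In this list 2 genes were lower in every congenic rat, beside 5.01% of all genes.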

How the data were processed

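The arrays were scanned by the authors, and the scanner files that they deposited give each spot a background-corrected intensity (Agilent Feature Extraction 11.0.1.1, per the submitters' processing notes). The authors then quantile-normalized these values, kept probes detected in at least 3 of the 6 samples, and deposited log2 values for 23997 probes, which were used here. Quantile normalization gives every array the same distribution, so a shift shared by most genes would not be seen. The deposited values correlated at 0.9999 or more with log2 scanner intensities that were quantile-normalized here. The number of arrays limits the precision.

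Probes were named by matching their accessions to RefSeq (GRCr8), which named 18005 of 30367 probes and 15168 genes. A gene's brightest probe stood for it in lists. The strain difference (congenic minus S) was fitted by limma 3.58.1 under R 4.3.3, without covariates, through lmFit and eBayes, and p-values were adjusted by Benjamini-Hochberg across the 23997 probes. Limma was checked on simulated data with independent noise of equal spread in both strains. That setting holds no array like S2, so the check cannot speak to results that rest on S2. Plots were drawn with matplotlib 3.10.9. The members, the 8 pathway lists, the 9 marker lists and the tests were chosen with earlier results of these data known. Named were all members and, per list, up to 3 genes with the largest difference among those whose strains do not overlap, and others as said. The values of 1 marker gene are not reported here.

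The alternatives were scanner intensities with quantile or 75th percentile scaling, stricter or no detection filters, the methods' t-test, array weights, scan run or replicate number as a block, each rat left out in turn, all probes of a gene, and Hspb1 or Herpud1 moved between compartments. Normexp on the spots' median signal, with an offset of 50, was added after the data were seen.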

Additional observations from a re-analysis of the deposited data

How the results depend on the processing

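With 3 rats per strain and 1 array each, the limits lie in the number of animals, in S2 and in the scan runs, of which the second held only congenic rats. Of the settings that keep all rats, only array weights called a member. That fit did not converge and gave S3 a weight of 29.2 and the other arrays 0.12 to 1.16, so it rests nearly on S3 alone in its strain. It called 5 members at an adjusted p under 0.05 (Hspa5, Hsp90b1, Herpud1, Hsph1 and Hspb1) and 6 at an unadjusted p, and over all probes 6950 higher and 5524 lower by adjusted p, 14093 by unadjusted p, and 2090 higher and 1744 lower with a 2-fold change. Under it the 4 Hspa8 probes turned to -0.36, -0.29, -0.37 and -0.28. With the scan run as a block, Hspa8 turned to -0.0624, -0.128, -0.0242 and -0.0482, and 1102 probes were called by unadjusted p and 227 lower with a 2-fold change. The main counts were 0 by adjusted p, 3115 by unadjusted p and 776 higher and 562 lower with a 2-fold change. Scaling to the 75th percentile called 1 probe lower by adjusted p. Normexp gave 359 higher with a 2-fold change, the filter on all 6 arrays 342 lower, and the methods' t-test 515 higher and 178 lower. The cause of these shifts was not tested. Normexp on the mean signal was not run, since the scanner files used here hold a median signal.

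Leaving out each rat in turn gave 0 to 2999 probes higher and 0 to 2554 lower by adjusted p, 1288 to 9843 by unadjusted p, and 477 to 2397 higher and 192 to 1725 lower with a 2-fold change, the highest of each without S2. Members called by adjusted p were 0 to 2, by unadjusted p 0 to 2, and with strains apart 0 to 2. The cytosolic minus ER difference was 0.12 to 0.68, the lowest without S1 and the highest without S2. List medians were -0.07 to 0.04 for ER chaperones, -0.24 to -0.08 for ER-associated degradation, -0.24 to 0.02 for TRiC, 0.04 to 0.16 for cytosolic Hsp70 and Hsp90, 0.17 to 0.30 for mitochondrial chaperones, 0.10 to 0.30 for sensors, 0.46 to 1.14 for small heat shock proteins and -0.12 to 0.00 for the integrated stress response. Among members the difference crossed 0 for Pdia4 (-0.12 to 0.0127), Ddit3 (-0.23 to 0.10), Atf4 (-0.14 to 0.0767), Hspa5 (-0.31 to 0.0606), Hsp90b1 (-0.20 to 0.0294) and the Hspa8 probes (-0.0867 to 0.25, -0.10 to 0.17, -0.11 to 0.26 and -0.0301 to 0.26), while Herpud1 (-0.73 to -0.34), Hsph1 (-0.55 to -0.07) and Hspb1 (0.33 to 1.89) kept their sign.

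With the replicate number as a block, 0 probes were called by adjusted p, 2563 by unadjusted p, 794 higher and 744 lower with a 2-fold change, and no member. Per the paper, each cage held an S rat with a congenic rat, but the labels give no cage and do not say what a shared number means. The deviations of same-numbered rats from the strain means correlated at -0.02, -0.13 and -0.06 over 23997 probes. Those of differently numbered rats correlated at -0.22 (C1 with S3) to 0.26 (C2 with S3).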
